A study of Homo sapiens with 6 samples.

Results

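The genes described here are 10 drivers and markers of mesenchymal transition, taken by symbol from the deposited expression table. They are the transcription factors SNAI1, SNAI2, ZEB1, ZEB2, TWIST1 and TWIST2, the cadherins CDH1 and CDH2, the filament gene VIM and the matrix gene FN1. All 10 were found among the 59074 genes listed. The study lowered the long noncoding RNA HOTAIRM1 in LN-229, T98G and U251, established human glioblastoma cell lines. Each line was transfected using Lipofectamine RNAiMAX with a non-target siPOOL, a pool of short interfering RNAs (siControl), or with a HOTAIRM1-specific siPOOL (siHOTAIRM1), and RNA was taken at 72 h. There was 1 library for each line and condition, 6 in all, so a change within a line has no replicate check. Tests over the lines set the mean change of the 3 lines against a spread that limma draws partly from other genes. They therefore do not measure how far the change of a single gene varied among the 3 lines. Tests between lines treat the 2 libraries of a line as its replicates although they received different pools.

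In epithelial cells, SNAI, ZEB and TWIST proteins bind short E-box sequences and repress junction genes such as CDH1, while N-cadherin, vimentin and fibronectin accumulate. Glioma cells do not start from an epithelium, and in glioblastoma these factors are followed as markers of a mesenchymal, invasive state. The ZEB factors and the miR-200 family of microRNAs are known to repress each other.

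Levels are given as deposited, in CPM, reads of a gene scaled to the depth of its library. The step between low values, which is the worth of 1 read, gave depths, rounded, of 88300000 reads for LN-229 siControl and 103900000 reads for LN-229 siHOTAIRM1. It gave 69100000 reads for siControl and 72700000 reads for siHOTAIRM1 in T98G, and 52300000 and 101200000 reads in U251. The listed values did not sum to the same total in each library. The sums were 470106 CPM in siControl and 485287 CPM in siHOTAIRM1 cells of LN-229, 502187 and 428690 CPM in T98G, and 672483 and 559232 CPM in U251, which is 42.9% to 67.2% of the depth. At these depths 3 reads correspond to 0.0289 to 0.0574 CPM. The U251 siControl library stood apart, with the lowest depth and with 60589 CPM on RN7SL1, an RNA of the signal recognition particle, against 11862 to 27894 CPM in the other 5 libraries. Intervals given for single libraries cover counting error only.

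HOTAIRM1 itself was at 1.99 CPM in siControl and 0.952 CPM in siHOTAIRM1 cells of LN-229, at 3.49 and 2.15 CPM in T98G, and at 1.27 and 0.623 CPM in U251. It was lower with the specific pool in all 3 lines, by 52.2% in LN-229 (95% counting interval 38.9% to 62.7%), 38.5% in T98G (24.8% to 49.7%) and 51.1% in U251 (31.0% to 65.4%). Over the lines the difference in log2(CPM + 1) was -0.54 (SE 0.12, limma adjusted p = 0.0146). With a pseudocount of 0.1 it was -0.87 (limma adjusted p = 0.00302). The call was lost without the libraries of LN-229 (-0.50, limma adjusted p = 0.0711) or of T98G (-0.55, limma adjusted p = 0.435), without the cell line block that pairs the libraries (-0.54, not past the threshold), with centring (-0.46, limma adjusted p = 0.170) and with no filter on low values (limma adjusted p = 0.677).

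For each of the 10 genes except CDH1, the largest fitted difference between cell lines was greater in size than the fitted knock-down difference. LN-229 had almost no SNAI2, U251 had almost no TWIST2 and little SNAI1, and T98G combined the highest ZEB1 with the lowest ZEB2. CDH1 was at 1 read or none in every library, and CDH2, VIM and FN1 were abundant in all 6.

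**Figure D1:**
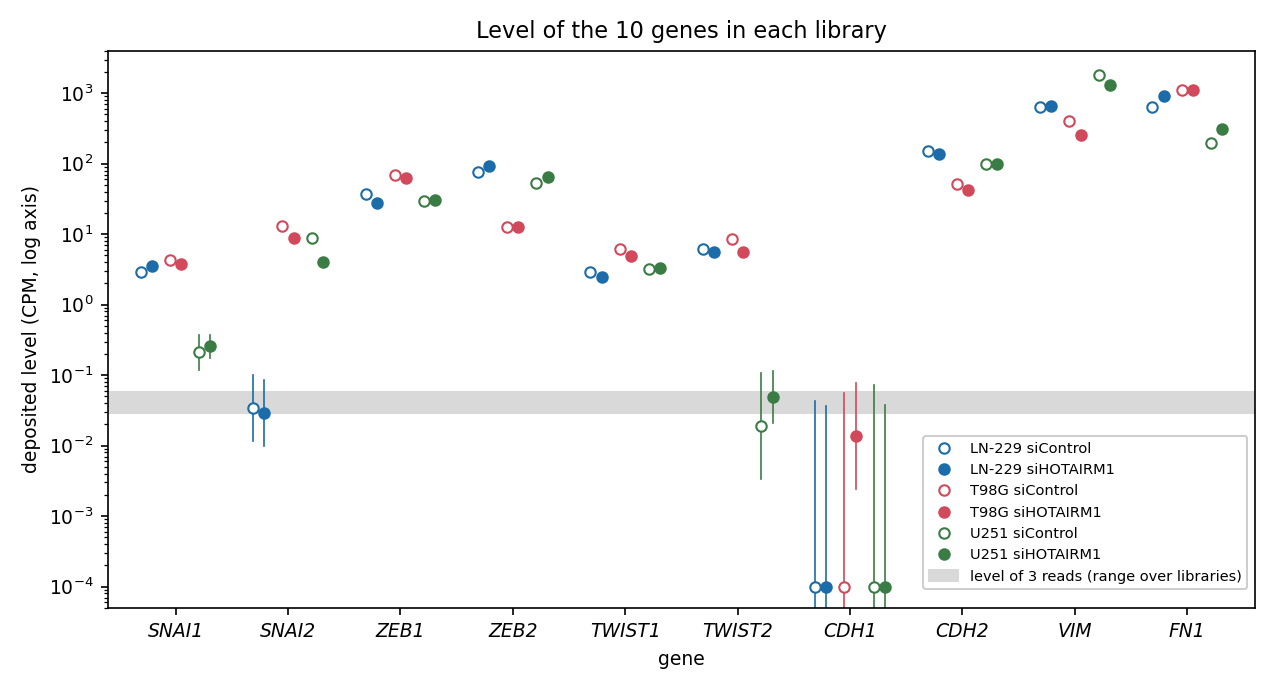
Deposited level (CPM, log axis) of the 10 genes, with siControl libraries as open and siHOTAIRM1 libraries as filled points, bars for 95% Wilson intervals and a grey band for the level of 3 reads. SNAI2 in LN-229, TWIST2 in U251 and CDH1 in every library lie at or near that band, with CDH1 listed at 0.0001 CPM where it had no read.

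SNAI1, the zinc finger repressor Snail, was at 2.93 CPM in LN-229 siControl and 3.57 CPM in siHOTAIRM1 cells, at 4.27 and 3.75 CPM in T98G, and at 0.211 and 0.257 CPM in U251. Both U251 libraries, with 11 and 26 reads, lay below the other 4, while those of LN-229 and T98G lay close together. The ratio of T98G to LN-229 was 1.46 in siControl cells (95% exact counting interval 1.23 to 1.73). With the specific pool it was 1.05 (0.896 to 1.23). In siControl cells T98G had 20.3 times the SNAI1 of U251 (95% exact counting interval 11.2 to 41.1) and LN-229 13.9 times (7.66 to 28.3). With the specific pool these were 14.6 (9.76 to 22.8) and 13.9 (9.33 to 21.6). SNAI1 was called lower in U251 than in LN-229 (difference in log2(CPM + 1) -1.78, SE 0.16, limma adjusted p = 3.94e-12), with -3.32 under a pseudocount of 0.1, and T98G minus LN-229 was 0.24 (SE 0.16, limma adjusted p = 0.199). That last value moved with single libraries, to 0.098 without siControl T98G, 0.11 without siControl LN-229, 0.37 without siHOTAIRM1 LN-229 and 0.38 without siHOTAIRM1 T98G, and was 0.42 in the siControl libraries alone.

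SNAI2 encodes Slug, a related repressor that marks migrating neural crest. It had 3 reads in each LN-229 library, 0.0341 CPM in siControl and 0.0290 CPM in siHOTAIRM1 cells. T98G held 13.2 CPM in siControl and 8.80 CPM in siHOTAIRM1 cells, and U251 held 8.96 and 4.05 CPM. The order was therefore T98G, U251 and then LN-229 within each condition, with the ranges of T98G and U251 overlapping. In siControl cells the ratio to LN-229 was 389 for T98G (95% exact counting interval 133 to 1890) and 264 for U251 (89.6 to 1283). With the specific pool it was 305 (104 to 1482) and 140.4 (47.7 to 683). On the fitted scale T98G exceeded LN-229 by 3.52 (SE 0.18, limma adjusted p = 2.04e-18). Fitted differences of genes with few reads in a line depend on the pseudocount, and with 0.1 in place of 1 this one was 6.37. U251 minus T98G was -0.74 (SE 0.18, limma adjusted p = 0.000813). That last call was lost without siControl T98G (-0.71, limma adjusted p = 0.0885), without siHOTAIRM1 T98G (-0.76, limma adjusted p = 0.0810) without siHOTAIRM1 U251 (-0.38, limma adjusted p = 0.102), or with no filter on low values (-0.74, limma adjusted p = 0.0961).

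ZEB1, a zinc finger and homeobox repressor of epithelial genes, was at 37.1 CPM in siControl and 27.3 CPM in siHOTAIRM1 LN-229 cells, 68.5 and 63.6 CPM in T98G, and 29.7 and 30.7 CPM in U251. T98G stood above both other lines, whose ranges overlapped. ZEB2, its paralog, was at 77.1 and 92.9 CPM in LN-229, 12.5 and 12.7 CPM in T98G, and 53.1 and 64.0 CPM in U251. None of the 3 lines overlapped with another for ZEB2, and T98G was lowest. T98G minus LN-229 was 1.03 for ZEB1 (SE 0.18, limma adjusted p = 7.04e-06) and -2.66 for ZEB2 (SE 0.17, limma adjusted p = 1.06e-15). U251 minus LN-229 was -0.08 for ZEB1 (SE 0.18, limma adjusted p = 0.732), which turned to 0.12 without siControl LN-229. For ZEB2 it was -0.53 (SE 0.17, limma adjusted p = 0.00875), a call lost without siHOTAIRM1 LN-229 (-0.47, limma adjusted p = 0.0982) or siControl U251 (-0.47, limma adjusted p = 0.118). The libraries did not keep strand, so reads of ZEB1 and ZEB2 cannot be told apart from those of their antisense partners, of which ZEB1-AS1 was at 1.01 to 3.08 CPM and ZEB2-AS1 at 0.0384 to 0.193 CPM.

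Both ZEB genes can be compared only per length. Per kilobase of all annotated exons, the ratio of ZEB1 to ZEB2 was 16.6 in siControl and 15.2 in siHOTAIRM1 T98G cells. It was 1.45 and 0.890 in LN-229, and 1.69 and 1.45 in U251. Per kilobase of the canonical transcript, a length scale chosen after seeing the data, the ratio was 8.57 and 7.82 in T98G, 0.751 and 0.459 in LN-229, and 0.872 and 0.748 in U251. T98G held more ZEB1 than ZEB2 on both scales, whereas the order in LN-229 siControl cells and in both U251 libraries depended on the length used.

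**Figure D2:**
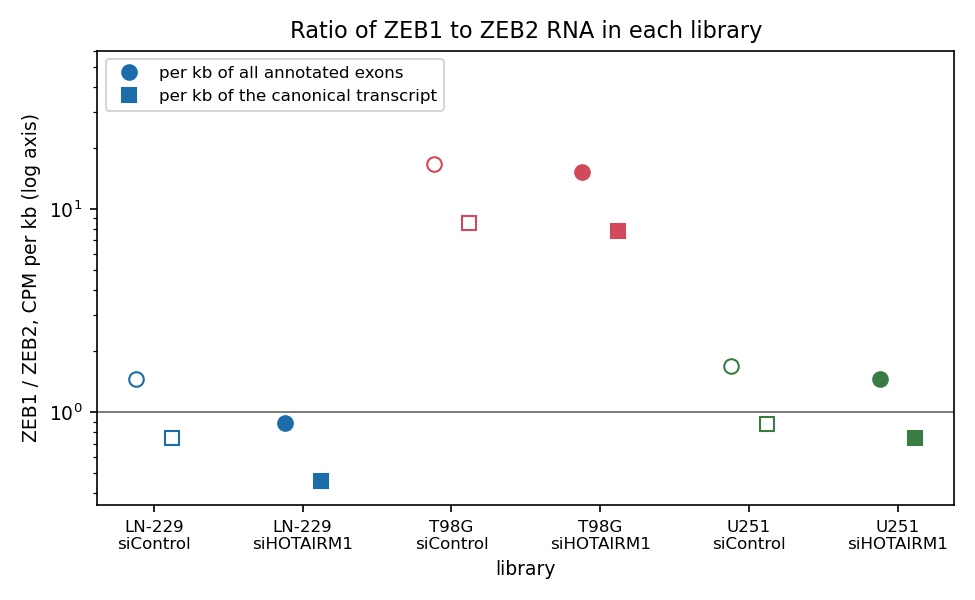
Ratio of ZEB1 to ZEB2 in CPM per kilobase (log axis) in each library, with circles for all annotated exons, squares for the canonical transcript, open points for siControl and filled points for siHOTAIRM1. Both T98G libraries lie between 7.82 and 16.6, and the others lie on either side of 1.

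The promoters of the ZEB pair are shown as a description of these genes. They are reference sequences, not those of the lines, and hold no difference between the lines. RefSeq promoters (GRCh38.p14, 250 bases before to 50 after each start) were matched for 6 of the 10 genes, with 13 starts. The E-box CAGGTG, searched on both strands as CAGGTG or CACCTG and bound by SNAI and ZEB proteins, is in capitals. It occurs 3 times at the start of ZEB1 shown here (chr10:31318966-31319265, plus strand), at bases -242, -85 and 33 from the start. The ZEB1 start shown is the one with the most matches among 7, so its contrast with ZEB2 partly reflects that choice. It does not occur in the ZEB2 window (chr2:144520070-144520369, minus strand).
ZEB1: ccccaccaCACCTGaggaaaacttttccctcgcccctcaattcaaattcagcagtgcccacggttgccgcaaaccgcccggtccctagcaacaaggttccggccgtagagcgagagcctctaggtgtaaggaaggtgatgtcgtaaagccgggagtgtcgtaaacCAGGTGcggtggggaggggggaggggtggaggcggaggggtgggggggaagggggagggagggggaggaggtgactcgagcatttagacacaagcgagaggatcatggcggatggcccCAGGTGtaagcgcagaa
ZEB2: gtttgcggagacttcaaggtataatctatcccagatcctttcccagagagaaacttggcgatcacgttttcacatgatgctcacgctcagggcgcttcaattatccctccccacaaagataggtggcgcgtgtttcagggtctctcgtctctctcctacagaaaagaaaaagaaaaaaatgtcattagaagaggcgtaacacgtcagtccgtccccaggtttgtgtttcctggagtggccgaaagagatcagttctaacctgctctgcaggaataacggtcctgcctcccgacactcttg
Of 35116 RefSeq promoters of this length, 20.6% hold CAGGTG or CACCTG. Among the 13 windows it was found at 2 of the 7 ZEB1 starts and at none of those of ZEB2, TWIST2, CDH2, VIM or FN1. A match is a description of these letters, and binding was not measured.

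The miR-200 microRNAs are shown because of their known pairing with both ZEB transcripts. Their mature sequences from RefSeq fall into 2 groups by seed, bases 2 to 8 in capitals.
miR-200b-3p: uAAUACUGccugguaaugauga
miR-200c-3p: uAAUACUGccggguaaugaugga
miR-200a-3p: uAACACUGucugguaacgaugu
miR-141-3p: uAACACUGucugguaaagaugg
In the 3′ untranslated region of the canonical transcript (GENCODE 44), the match CAGTATT to the seed AAUACUG occurs 6 times in ZEB1, 5 times in ZEB2 and 2 times in FN1. The match CAGTGTT to AACACUG occurs 3 times in ZEB1 and 4 times in ZEB2. SNAI1, TWIST1, TWIST2, CDH1, CDH2 and VIM hold neither. For SNAI2 no count of matches is available. Of the untranslated regions within 10% of the length of that of ZEB1, 26.2% hold CAGTATT and 27.8% CAGTGTT. The shares are 43.7% and 49.8% for ZEB2, and 5.55% hold CAGTATT for FN1. An example of each, with the match in capitals, begins the match at base 1313 of the region in ZEB1 and base 1029 in ZEB2.
ZEB1 site: tcaaacctggCAGTATTaatac
ZEB2 site: ctgtagtgtaCAGTATTatagt
Mature microRNAs are not measured in libraries of long RNA. The gene rows MIR200A, MIR200B, MIR200C, MIR141 and MIR429 were listed at 0.0001 CPM, the lowest value of the table, in all 6 libraries, and MIR200CHG, the host of miR-200c and miR-141, had 1 read in LN-229 siHOTAIRM1 and none elsewhere.

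TWIST1, a basic helix-loop-helix factor of mesoderm and neural crest, was at 2.93 CPM in siControl and 2.49 CPM in siHOTAIRM1 cells of LN-229, 6.12 and 4.91 CPM in T98G, and 3.18 and 3.28 CPM in U251. T98G was above the other lines without overlap. T98G minus LN-229 was 0.81 (SE 0.17, limma adjusted p = 0.000118). U251 minus T98G was -0.62 (SE 0.17, limma adjusted p = 0.00183), a call lost without siControl T98G (-0.52, limma adjusted p = 0.0881).

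TWIST2, its close paralog, was at 6.09 CPM in siControl and 5.65 CPM in siHOTAIRM1 cells of LN-229 and at 8.47 and 5.54 CPM in T98G. U251 had 1 read in siControl and 5 reads in siHOTAIRM1 cells, 0.0192 and 0.0495 CPM. LN-229 and T98G overlapped and U251 lay far below both. In siControl cells the ratio to U251 was 318 for LN-229 (95% exact counting interval 56.9 to 12602) and 443 for T98G (79.1 to 17511). With the specific pool it was 114 (48.7 to 353) and 112 (47.7 to 347). U251 minus LN-229 was -2.73 on the fitted scale (SE 0.17, limma adjusted p = 2.51e-16), or -5.48 with a pseudocount of 0.1, and T98G minus LN-229 was 0.20 (SE 0.17, limma adjusted p = 0.335), which turned to -0.057 without siControl T98G and was 0.45 without siHOTAIRM1 T98G.

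CDH1 encodes E-cadherin, the adhesion protein of epithelia that SNAI and ZEB factors repress. It had no read in 5 libraries and 1 read in T98G siHOTAIRM1. The upper 95% Wilson limits were 0.0435 and 0.0370 CPM in LN-229, 0.0556 and 0.0779 CPM in T98G, and 0.0735 and 0.0380 CPM in U251, each with siControl given before siHOTAIRM1. CDH1 was thus not detectable at this depth in either condition, did not pass the filter on low values, and no fold is given. The other 9 genes passed it.

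CDH2, encoding N-cadherin of neural and mesenchymal cells, was at 149.7 CPM in siControl and 138 CPM in siHOTAIRM1 cells of LN-229, 51.5 and 42.4 CPM in T98G, and 100.1 and 97.9 CPM in U251. The order LN-229, U251, T98G held in both conditions and no 2 lines overlapped. T98G minus LN-229 was -1.60 (SE 0.18, limma adjusted p = 2.05e-09). U251 minus LN-229 was -0.53 (SE 0.18, limma adjusted p = 0.0120), and this call was lost whichever library of the pair was left out. The values were -0.55 without siControl LN-229 (limma adjusted p = 0.0726), -0.51 without siHOTAIRM1 LN-229 (0.0803), -0.45 without siControl U251 (0.168) and -0.61 without siHOTAIRM1 U251 (0.0512).

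VIM, the gene of the mesenchymal intermediate filament vimentin, was at 635 CPM in siControl and 652 CPM in siHOTAIRM1 cells of LN-229, 403 and 254 CPM in T98G, and 1794 and 1309 CPM in U251. U251 was highest and T98G lowest, with no overlap. U251 minus T98G was 2.26 (SE 0.26, limma adjusted p = 2.20e-09). T98G minus LN-229 was -1.01 (SE 0.26, limma adjusted p = 0.00127), a call lost without siHOTAIRM1 LN-229 (-0.71, limma adjusted p = 0.133), without siHOTAIRM1 T98G (-0.78, limma adjusted p = 0.115) or with no filter on low values (limma adjusted p = 0.0625). VIM-AS1, its antisense partner at 0.481 to 1.72 CPM, cannot be told apart from it by strand.

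FN1 encodes fibronectin, a matrix protein that cells bind through integrins. It was at 642 CPM in siControl and 901 CPM in siHOTAIRM1 cells of LN-229, 1108 and 1119 CPM in T98G, and 197 and 309.8 CPM in U251. T98G was highest and U251 lowest, and no 2 lines overlapped. U251 minus LN-229 was -1.62 (SE 0.25, limma adjusted p = 9.71e-07). T98G minus LN-229 was 0.55 (SE 0.25, limma adjusted p = 0.0612) and passed the threshold with each library centred on its median (0.63, limma adjusted p = 0.0140) or without siHOTAIRM1 T98G (0.83, limma adjusted p = 0.0498). It was 0.27 without siControl T98G (limma adjusted p = 0.476) and 0.47 without siControl LN-229 (limma adjusted p = 0.309), so whether it passed depended on the library left out.

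In all, 6 of the 9 genes tested were called between T98G and LN-229, where 54.9% of the 14294 genes tested were called. SNAI2, ZEB1 and TWIST1 were higher in T98G (24.1% of all genes) and ZEB2, CDH2 and VIM lower (30.8%). Between U251 and LN-229 7 were called, beside 60.6% of all genes, with SNAI2 and VIM higher in U251 (36.7%) and SNAI1, ZEB2, TWIST2, CDH2 and FN1 lower (23.9%). All 9 differed between U251 and T98G, beside 64.2% of all genes. ZEB2, CDH2 and VIM were higher in U251 (41%) and the other 6 lower (23.1%). With such shares over all genes, these counts do not set the 9 genes apart. SNAI1, SNAI2 and TWIST2 passed the filter only through the lines where they were high, so they had to differ. Without siHOTAIRM1 T98G the count over all genes for T98G minus LN-229 was 5107 in place of 7851. Without siControl U251, the library that stood apart, 5 of the 9 were called against LN-229 and 9 against T98G.

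**Figure D3:**
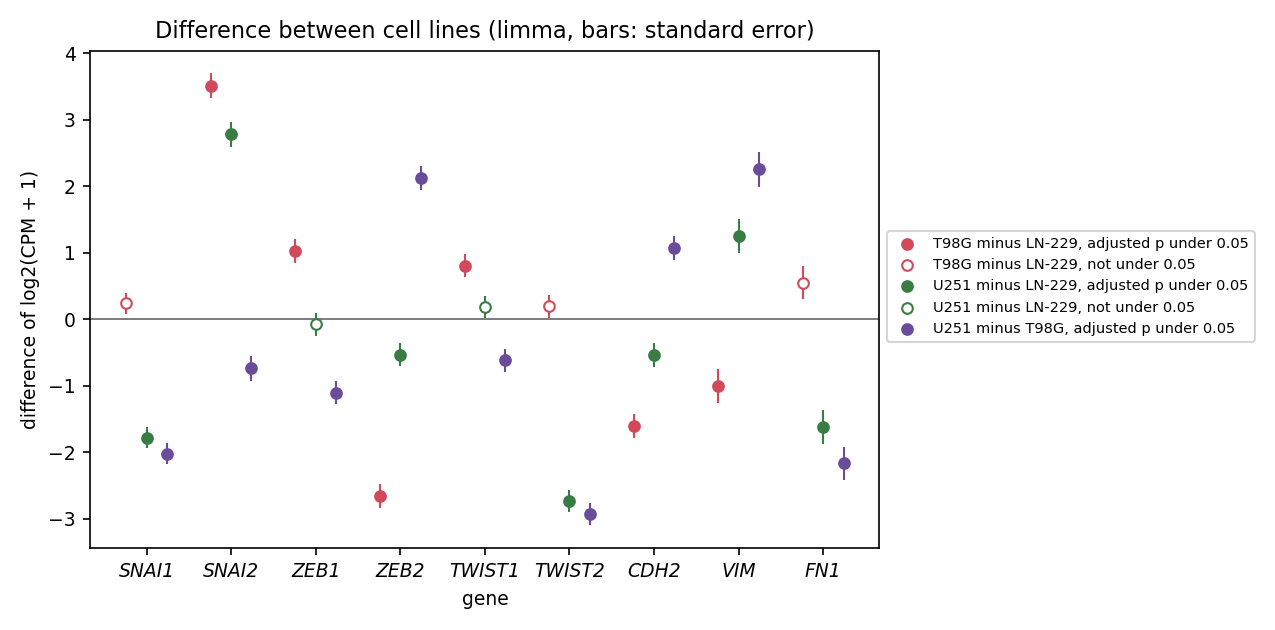
Difference between cell lines in log2(CPM + 1) for the 9 genes tested, with bars for the standard error and open points where the limma adjusted p was not under 0.05. ZEB2 and VIM lie above 0 in U251 minus T98G, at 2.13 and 2.26, while SNAI1, TWIST2 and FN1 lie at -2.02, -2.93 and -2.17.

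With HOTAIRM1 lowered, 0 of the 9 genes passed the limma test over the lines, and 1, SNAI2, had an unadjusted p under 0.05. Over all genes 286 were called, 2% of those tested, of which 0.413% were higher and 1.59% lower, and 2622 had an unadjusted p under 0.05. Without the libraries of T98G 0 genes were called over all, and without those of U251 149. The paired statistic of each gene alone called 0 of the 9, as it called 0 of all 14294 genes. The median difference was -0.14 over the 9 genes and -0.07 over all genes. Changes are also given relative to the median change of the line, which was -0.19 in T98G, where 79.3% of genes were lower, against 0.01 in LN-229 and -0.03 in U251.

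SNAI2 was lower with the specific pool in each line, as measured and relative to the median, though LN-229 had 3 reads in either library. The change was -33.4% in T98G (95% counting interval -39.8% to -26.4%) and -54.8% in U251 (-60.4% to -48.4%). In log2(CPM + 1) these were -0.54 and -0.98, or -0.35 and -0.95 relative to the median. Over the lines the difference was -0.51 (SE 0.15, limma adjusted p = 0.0660), and it was -0.27 without U251 and -0.76 without LN-229. The values -0.51 and -0.27 include the uninformative LN-229 libraries.

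FN1 and ZEB2 were higher with the specific pool in 3 of 3 lines on both scales. For FN1 the change was 40.5% in LN-229 (39.0% to 41.9%), 1.03% in T98G and 57.3% in U251 (53.8% to 60.8%), and the difference over the lines was 0.38 (SE 0.20, limma adjusted p = 0.312), or 0.25 without U251 and 0.57 without T98G. For ZEB2 it was 20.4% in LN-229 (16.8% to 24.2%), 1.57% in T98G (-7.43% to 11.5%) and 20.6% in U251 (15.4% to 26.1%), with 0.18 over the lines (SE 0.14, limma adjusted p = 0.502). Relative to the median the T98G values were 0.20 for FN1 and 0.21 for ZEB2.

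VIM differed by 2.75% in LN-229 (1.60% to 3.90%), -37.1% in T98G (-38.3% to -35.9%) and -27.1% in U251 (-27.7% to -26.4%). It was thus little changed in LN-229 and lower in the other lines, also relative to the median (0.03, -0.48 and -0.43). Over the lines the difference was -0.36 (SE 0.21, limma adjusted p = 0.364), or -0.21 without T98G and -0.56 without LN-229.

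ZEB1 differed by -26.3% in LN-229 (-29.9% to -22.5%), -7.24% in T98G and 3.49% in U251, and in T98G it turned to 0.083 relative to the median. SNAI1 differed by 21.6% in LN-229 (3.79% to 42.6%), -12.1% in T98G (-25.5% to 3.61%) and 22.0% in U251 (-39.7% to 147%). In T98G the SNAI1 change turned to 0.041 relative to the median. TWIST2 differed by -7.35% in LN-229 and -34.6% in T98G (-42.4% to -25.7%), and its 1 and 5 reads in U251 could show no difference at this depth. In LN-229, T98G and U251, TWIST1 differed by -15.1%, -19.9% and 3.26%, and CDH2 by -7.90%, -17.7% and -2.24%. Relative to the median the T98G change shrank for all 3, in log2(CPM + 1) from -0.53 to -0.34 for TWIST2, from -0.27 to -0.080 for TWIST1 and from -0.28 to -0.086 for CDH2. On that scale LN-229 had the larger change for TWIST1 (-0.18) and CDH2 (-0.13). Over the lines the differences of these 5 genes lay between -0.20 for TWIST2 (limma adjusted p = 0.462) and 0.040 for SNAI1 (limma adjusted p = 0.905), which was -0.047 without LN-229. With a line left out, TWIST2 ranged from -0.31 to -0.026, ZEB1 from -0.27 to -0.029, TWIST1 from -0.22 to -0.068 and CDH2 from -0.20 to -0.075. Whether any gene responded differently from line to line was not tested.

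**Figure D4:**
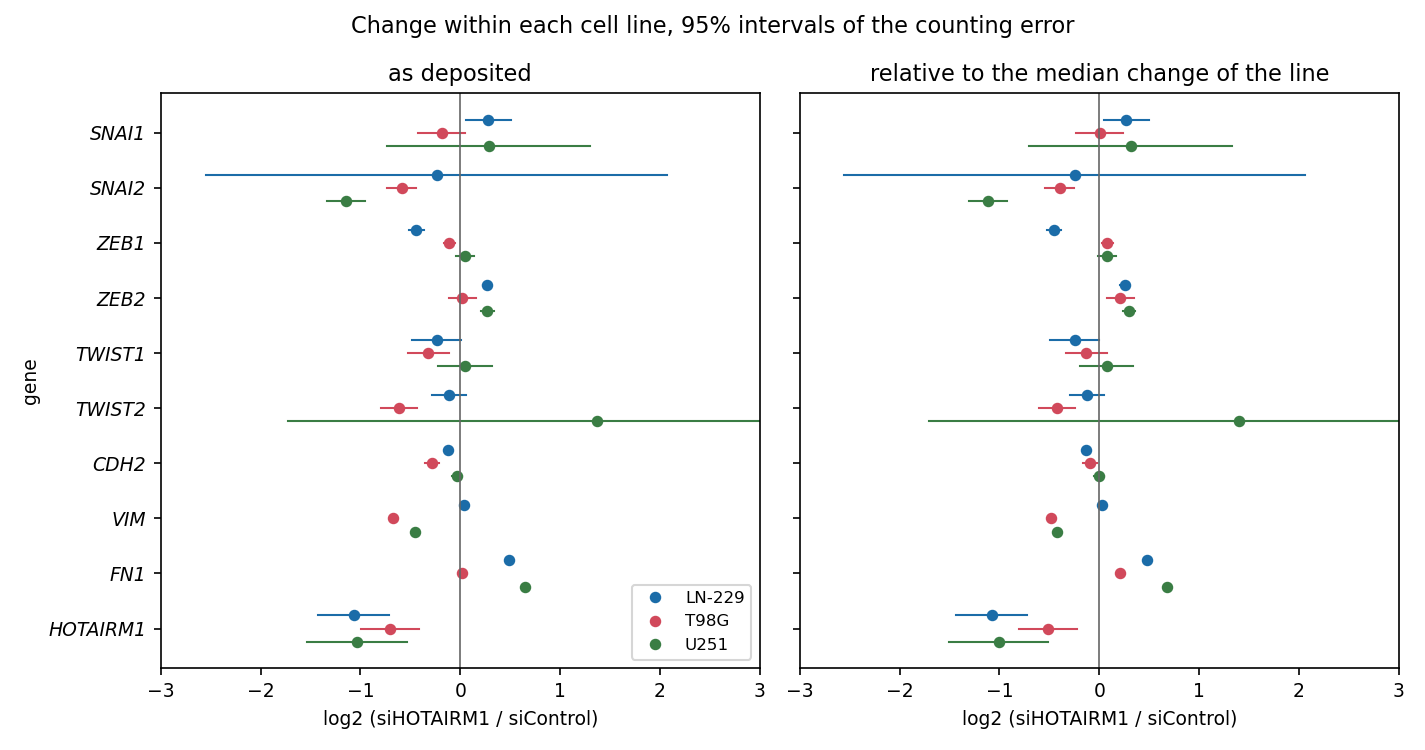
Change within each line as log2 of the siHOTAIRM1 to siControl ratio, as deposited on the left and minus the line's median change in log2(CPM + 1) on the right, with bars for 95% counting intervals (drawn up to 3). SNAI2 in T98G and U251 lies below 0 and FN1 in LN-229 and U251 above 0 in both panels, while in T98G ZEB1 moves to the other side of 0 and SNAI1 to about 0.

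Related genes were taken from lists. Counts in the line comparisons are given in the order T98G minus LN-229, U251 minus LN-229 and U251 minus T98G. Of all genes tested 24.1% were called higher and 30.8% lower in the first, 36.7% and 23.9% in the second, and 41% and 23.1% in the third. No list was tested against these shares. The list counts are descriptions only, since a listed gene nearly absent from 1 or 2 lines passed the filter only through the others and had to differ. In the knock-down comparison 4 of the 121 listed genes tested were called, beside 2% of all genes, and they lay in 2 lists, the mesenchymal matrix and contractile genes and the leukocyte and endothelial markers. The other lists had 0 genes called by limma. With a pseudocount of 0.1, 6 of the listed genes were called beside 683 of all genes, and with centring 1 beside 41. With no filter, with no cell line block and in the paired statistic 0 were called both in the lists and over all genes.

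Of 14 other transition factors 8 were tested. They were called higher and lower for 2 and 3 genes, 4 and 2 genes, and 5 and 2 genes in the 3 line comparisons. PRRX1, a homeobox factor of limb and craniofacial mesenchyme, was at 34.9 and 40.1 CPM in LN-229, 0.449 and 0.275 CPM in T98G, and 87.0 and 66.1 CPM in U251, so that T98G was lowest as for ZEB2. SOX9, a factor of neural crest and glial progenitors, was at 0.0228 and 0.0290 CPM in LN-229, 10.3 and 11.5 CPM in T98G, and 31.6 and 47.1 CPM in U251. It was lowest in LN-229, as SNAI2 was.

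All 13 corepressor partners of SNAI and ZEB proteins were tested, with 1 higher and 3 lower, 6 and 2, and 6 and 2. KDM1A, a histone demethylase recruited by SNAI1, was at 84.8 and 83.5 CPM in LN-229, 54.4 and 42.7 CPM in T98G, and 60.4 and 54.0 CPM in U251. Of 11 genes for turnover of SNAI and TWIST proteins, 1 was higher and 2 lower, 5 and 2, and 5 and 1. Of 10 regulators of the mesenchymal glioma state, 4 were higher and 5 lower, 3 and 5, and 4 and 4. STAT3 ranged from 54.4 CPM in LN-229 siControl to 153 CPM in U251 siHOTAIRM1, and RUNX1 was highest in LN-229, at 50.1 and 49.2 CPM.

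TGF-beta signalling induces several of these factors. Of its 11 ligands, receptors and SMADs, 3 were higher and 5 lower, 2 and 6, and 2 and 4. TGFB2, a ligand, was at 2.58 and 2.76 CPM in LN-229, 138 and 138 CPM in T98G, and 35.7 and 49.2 CPM in U251. The order of the lines was the same as for SNAI2, and T98G minus LN-229 was 5.25 (limma adjusted p = 5.24e-24). TGFB2 was 1 of the 3 genes called higher there, and the 5 called lower ran the other way. Among those 5, T98G minus LN-229 was -2.59 for the ligand TGFB3, -1.24 for the receptor TGFBR1 and -1.20 for SMAD2. Whether TGF-beta signalling had a part in the SNAI2 levels was not tested.

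Of 17 other classical cadherins 8 were tested, with 3 higher and 4 lower, 3 and 4, and 1 and 1. Among others, CDH18 and CDH19 passed the filter through LN-229 alone and CDH4 through U251 alone. CDH19 was at 100.1 and 92.7 CPM in LN-229 and under 0.1 CPM in the other 4 libraries. CDH6 was the reverse, at 0.431 and 0.539 CPM in LN-229, 119.9 and 143 CPM in T98G, and 80.0 and 84.4 CPM in U251. CDH4 reached 41.8 and 58.9 CPM in U251 and stayed under 1 CPM elsewhere. CDH11 was present in all 6 libraries, at 42.5 and 59.9 CPM in LN-229, 139.8 and 135 CPM in T98G, and 157 and 190.1 CPM in U251. All 7 catenins and cadherin linkers were tested, with 2 higher and 2 lower, 3 and 1, and 4 and 0. Of 6 antisense and microRNA host genes 3 were tested, with 2 higher and 1 lower, 0 and 1, and 1 and 2. Of 23 epithelial junction and splicing genes 7 were tested, with 2 and 3, 3 and 4, and 3 and 4.

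Of 11 intermediate filament and linker genes 6 were tested, with 1 higher and 3 lower, 2 and 2, and 4 and 1. NES, encoding nestin, which copolymerises with vimentin, was at 368 and 360 CPM in LN-229, 0.956 and 0.866 CPM in T98G, and 329 and 507 CPM in U251. T98G was thus the lowest line for NES as for VIM. Of 11 fibronectin receptors 10 were tested, with 1 higher and 9 lower, 0 and 5, and 4 and 3. ITGB3 was at 520 and 453 CPM in LN-229, 34.1 and 21.1 CPM in T98G, and 40.0 and 47.7 CPM in U251. ITGA8, the 1 receptor called higher in T98G than in LN-229, was at 49.5 and 82.5 CPM in T98G against 0.0341 CPM or less elsewhere. It passed the filter through T98G alone, so that call has no weight of its own.

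Of 20 mesenchymal matrix and contractile genes 19 were tested, with 11 higher and 4 lower, 11 and 6, and 4 and 9. COL1A2, a chain of type I collagen, was at 0.453 and 0.443 CPM in LN-229, 409 and 511 CPM in T98G, and 587 and 622 CPM in U251. In the knock-down comparison 2 of these genes, POSTN and COL3A1, were called higher. POSTN, a matricellular protein, was at 2.71 and 3.55 CPM in LN-229, 2.03 and 7.81 CPM in T98G, and 0.191 and 0.731 CPM in U251, higher in 3 of 3 lines (0.79, limma adjusted p = 0.00386). COL3A1 was at 0.351 and 0.404 CPM in LN-229, 2.32 and 26.6 CPM in T98G, and 0.0001 and 0.0693 CPM in U251. Its difference lay mostly in T98G, and it passed the filter on low values only through its T98G siHOTAIRM1 library, so its call rests on the library that let it in and has no weight of its own. Of the 4 listed genes called, 0 passed without the libraries of T98G.

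Cell type markers were read in the same libraries, where fewer cells of a type and less RNA per cell cannot be told apart. All 8 astrocytic and neural progenitor genes were in the table and 6 were tested, with 2 higher and 3 lower, 4 and 1, and 5 and 0. Their summed level was 732 and 702 CPM in LN-229, 801 and 637 CPM in T98G, and 1351 and 1281 CPM in U251. CD44 was the most abundant in T98G and U251 but stood below NES in LN-229, at 329 and 304 CPM in LN-229, 780.4 and 623 CPM in T98G, and 819 and 572 CPM in U251. AQP4 was under 3 reads everywhere. SOX2 was at 8.15 and 8.60 CPM in LN-229 and 91.4 and 117 CPM in U251, while T98G had 0.0146 and 0.0001 CPM. GFAP was at 42.5 and 20.7 CPM in U251 and under 1 CPM in the other lines, and SLC1A3 was at 4.10 and 2.51 CPM in LN-229, 18.3 and 13.1 CPM in T98G, and 66.3 and 61.8 CPM in U251. T98G thus held little GFAP, NES or SOX2, but more CD44 and SLC1A3 than LN-229.

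All 10 epithelial markers were in the table and 2, KRT8 and KRT18, were tested, with 0 higher and 2 lower in each line comparison. Their sum was 97.97 and 79.97 CPM in LN-229, 76.9 and 58.6 CPM in T98G, and 5.68 and 4.26 CPM in U251, most of it KRT18. KRT5, ESRP1 and GRHL2 were under 3 reads everywhere. The 8 fibroblast and mural markers, all tested, summed to 25.8 and 32.7 CPM in LN-229, 792 and 886 CPM in T98G, and 811 and 844 CPM in U251, with COL1A2 the most abundant in T98G and U251. In LN-229 FAP (5.99 and 9.72 CPM), PDGFRA (7.34 and 9.73 CPM) and PDGFRB (3.19 and 2.75 CPM) stood above it. They were called higher and lower for 5 and 2, 5 and 2, and 2 and 4 genes, and like SNAI2 their sum was lowest in LN-229. The 8 leukocyte and endothelial markers, 2 of them tested, summed to 1.30 and 1.24 CPM in LN-229, 8.76 and 3.51 CPM in T98G, and 12.6 and 6.61 CPM in U251, with 1 higher and 0 lower, 1 and 0, and 1 and 1. KDR, an endothelial receptor, was the most abundant in U251, at 8.42 and 4.72 CPM, with 0.0341 CPM or less elsewhere. It passed the filter through U251 alone and supplied the higher calls of U251 in this list. CD68, a lysosomal protein and the most abundant in the other lines, was at 0.785 and 0.801 CPM in LN-229, 7.80 and 2.72 CPM in T98G, and 1.06 and 0.324 CPM in U251. It was lower with the specific pool in T98G and U251 but not in LN-229 (-0.62 over the lines, limma adjusted p = 0.0223). AIF1 and CD3E were under 3 reads everywhere. The markers' part in the levels of the 10 genes was not tested.

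For the 5 genes with an SD over 1 across the libraries in log2(CPM + 1), the closest profiles among all tested genes were sought over the 6 libraries, by the root mean square difference in log2(CPM + 1) after centring. They were MVP (0.17) and WNT5B (0.18) for SNAI2, LINC01515 (0.07) and APBA1 (0.09) for ZEB2, and CYTL1 (0.11) and CALB2 (0.11) for TWIST2. For VIM they were GTF3C6 (0.09) and IMPDH2 (0.14), and for FN1 C1RL (0.17) and ITPR2 (0.18). CALB2, for example, was at 6.29 and 4.95 CPM in LN-229, 6.73 and 4.66 CPM in T98G, and 0.0001 and 0.00998 CPM in U251. Likeness over 6 libraries says nothing of shared function.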

How the data were processed

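RNA of 3 glioblastoma lines under 2 conditions was sequenced, 1 library each. Per the methods and labels, reads were trimmed in Partek Flow and aligned to hg38 with STAR 2.4.1d, and unaligned reads went through Bowtie 2. The combined reads were assigned to Ensembl genes by expectation-maximization, and the authors deposited CPM with 0.0001 added. Only 72.1% to 77.2% of values were whole reads within 0.02, so no count test was run. Here log2(CPM + 1) of 14294 genes with a mean of 1 CPM or more was fitted in limma 3.58.1 with cell line and condition as terms and Benjamini-Hochberg adjustment at 0.05, a step tested on simulated data. The lines pair the libraries: deviations from the mean of a condition correlated at 0.948 to 0.967 for the same line. Those of different lines correlated at -0.505 to -0.467, which follows from centring on a mean of only 3 libraries. Members and lists were chosen with earlier results of these data known. Named genes were the members, HOTAIRM1 and, from each list, genes called in the knock-down, the 2 most abundant and up to 3 with the largest line differences, given in part. Alternatives were another pseudocount, no filter, centring, no cell line block, a paired statistic, siControl libraries alone and leaving out libraries. Older symbols were matched through RefSeq. The result of 1 listed gene is not reported here.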

Additional observations from a re-analysis of the deposited data

Results flagged for a closer look

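VIM stood out because its counting interval lay above 0 in LN-229 and below 0 in T98G and U251. Its change in log2(CPM + 1) in LN-229 exceeded that in T98G by 0.71 and that in U251 by 0.49. The LN-229 change was only 2.75%, and the interval leaves out variation between libraries. The listed values of LN-229 also summed to 470106 CPM in siControl and 485287 CPM in siHOTAIRM1 cells. The sign of so small a change therefore rests on the scaling. With 1 library for each line and condition, the difference was not tested.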

How the results depend on the processing

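The knock-down comparison called 286 genes, of which 20.6% were higher. It called 683 with a pseudocount of 0.1, 0 with no filter on low values, and 41 with each library centred on its median, of which 36.6% were higher. Without the cell line block that pairs the libraries it called 0, and the paired statistic of each gene alone called 0. Leaving out a line gave 0 (T98G) to 270 (LN-229), with 149 without U251. HOTAIRM1 was at -0.87 with a pseudocount of 0.1 (limma adjusted p = 0.00302), at -0.54 with no filter (limma adjusted p = 0.677), without the block (not past the threshold) and in the paired statistic (0.637), and at -0.46 with centring (0.170). It ranged from -0.56 to -0.50 with a line left out. The 4 listed genes called became 6 with a pseudocount of 0.1, 0 with no filter, 1 with centring, 0 without the block, 0 in the paired statistic, and 0 to 4 with a line left out. The block changed no other call: 0 of the 9 genes were called with or without it, and under every alternative run, of which those that called 0 of all genes say nothing of these 9.

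Between lines, the genes called for T98G minus LN-229 fell from 7851 to between 5107 and 5876 with a library left out. Centring moved the share of calls that were higher from 64% to 50.5% in U251 minus T98G. That share moved from 60.5% to 51.7% in U251 minus LN-229 and from 43.9% to 50.8% in T98G minus LN-229. The call of SNAI2 in U251 minus T98G was lost with no filter (-0.74, limma adjusted p = 0.0961). The genes of the report called ranged from 5 to 7, 5 to 7 and 7 to 9 in the 3 line comparisons, of 9 tested, or of 10 with no filter, where 5, 7 and 8 were called. Directions turned for SNAI1 in the knock-down without LN-229 (-0.047; range -0.047 to 0.14 with a line left out), for TWIST2 in T98G minus LN-229 without siControl T98G (-0.057; range -0.057 to 0.45), and for ZEB1 in U251 minus LN-229 without siControl LN-229 (0.12) or siControl U251 (0.081; range -0.27 to 0.12). The siControl libraries alone, which allow no test, moved T98G minus LN-229 to 0.42 for SNAI1, 3.78 for SNAI2, 0.42 for TWIST2 and -0.65 for VIM. They moved U251 minus LN-229 to 3.27 for SNAI2 and -0.31 for ZEB1, and U251 minus T98G to -0.51 for SNAI2, -3.22 for TWIST2 and -2.49 for FN1. In T98G relative to the median, directions turned for SNAI1 (0.041) and ZEB1 (0.083). None of the tested values that turned had passed the threshold, and the cause was not tested. Depth limits CDH1 throughout, SNAI2 in LN-229 and TWIST2 in U251.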
